A study of Mus musculus with 28 samples.

Results

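The matrix proteases, their inhibitors and the matrix crosslinking enzymes were followed in mouse ventricular myocardium. Members were taken by gene symbol: the matrix metalloproteinases (Mmp), the tissue inhibitors of metalloproteinases (Timp), the Adamts proteases, the Adamts-like proteins (Adamtsl) and lysyl oxidase with its relatives (Lox, Loxl). This rule found 54 of the 45513 genes in the count table, namely 21 Mmp, 4 Timp, 19 Adamts, 5 Adamtsl and 5 Lox genes. Of these, 48 had enough counts to be tested, and Mmp7, Mmp8, Mmp10, Mmp20, Adamts13 and Adamts16 did not.

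RNA was sequenced from the hearts of 28 adult male C57BL/6 mice. Chronic kidney disease (CKD) was induced at 6 weeks of age by 5/6 nephrectomy, a surgery in stages that leaves a small remnant of kidney, and control mice had a sham operation. On day 7 each mouse was gavaged once with Oxalobacter formigenes (Oxf), a gut bacterium that degrades oxalate, or with 200 µl of culture medium (vehicle). All mice, controls included, ate a diet with 1% hydroxyproline, a precursor of oxalate, and 0.5% calcium, so no group was without that diet. By surgery and gavage there were 10 sham-vehicle, 6 CKD-vehicle, 5 sham-Oxf and 7 CKD-Oxf mice, out of 10 mice planned for each, and the other mice were not analysed here. Hearts were perfused with saline and frozen, and the time of day of collection is not given in the sources used here.

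The extracellular matrix of the heart is a network of collagens, elastic fibres and proteoglycans, made largely by fibroblasts. Mmp enzymes cut collagens and many other matrix and cell surface proteins, Adamts enzymes cut proteoglycans such as aggrecan and versican or process procollagen and microfibril proteins, and Timp proteins block the active sites of these proteases. Lysyl oxidases crosslink collagen and elastin, which stiffens the matrix, while Adamtsl proteins resemble Adamts enzymes but have no protease domain and bind to microfibrils. Much of this control acts on the proteins, through secretion as inactive precursors and through inhibitors, so a transcript level is not an enzyme activity.

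Total counts per library ran from 19.8 M to 65.4 M (median 38.1 M, with M for mega). Levels are given as CPM, counts scaled to a common library size, and comparisons between genes as CPM per kb of exon. The library of sham-Oxf replicate 1 stood apart: 15879 genes had a count there, against 27128 to 33995 in the other 27. Of 10750 genes with at least 100 counts in each of the other libraries, 247 had a count of 0 in it, as did 16 of the 48 tested members, while no tested member was at 0 in any other library. Results that rest on that library are also given without it. Cardiomyocyte markers summed to between 14427 and 38454 CPM with none at 0 in any library, while atrial markers ranged from 62.8 to 2775 CPM. In whole tissue, fewer cells of a type and less RNA per cell cannot be told apart.

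Adamts4, an aggrecanase that also cuts versican, was lower in the hearts of Oxf-gavaged mice, and it was the 1 member of 48 that passed in edgeR's quasi-likelihood test when the Oxf effect was averaged over sham and CKD mice. DESeq2 also called Adamts4 alone there, while limma voom called 10 members, Adamts4 among them, against 22% of all genes. Adamts4 (ENSMUSG00000006403) lies at chr1:171250421-171260637 on the plus strand of mm10, where it shares exon bases with 1 gene on the other strand. In sham-vehicle hearts, in order of mouse number, its level was 2.44, 2.56, 1.82, 2.11, 1.47, 1.19, 0.456, 0.512, 0.368 and 0.797 CPM. In CKD-vehicle hearts it was 2.18, 2.40, 1.53, 1.84, 1.12 and 1.83 CPM. The first 6 sham-vehicle mice and all CKD-vehicle mice were above 1 CPM, and the last 4 sham-vehicle mice were below it. In sham-Oxf hearts the values were 0, 0.360, 0.328, 0.811 and 0.130 CPM, where the 0 belongs to replicate 1 and 3 counts would have been 0.142 CPM. In CKD-Oxf hearts they were 0.997, 0.338, 0.634, 0.366, 0.381, 0.373 and 0.293 CPM. The CKD-Oxf hearts thus all lay below the 6 CKD-vehicle hearts, and 0.478% of all genes tested had no overlap between these groups. The hearts of both Oxf groups overlapped the last 4 sham-vehicle hearts.

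The group means of Adamts4 were 1.37 ± 0.83 CPM for sham-vehicle (SD, n = 10), 1.82 ± 0.46 for CKD-vehicle (n = 6), 0.33 ± 0.31 for sham-Oxf (n = 5) and 0.48 ± 0.25 for CKD-Oxf (n = 7). Averaged over surgery, the log2 fold change with Oxf was −1.96 ± 0.37 (SE), a 3.89-fold lower level, with an adjusted p of 0.0084 in edgeR's quasi-likelihood test. Over all genes tested in that comparison 2.81% were called (1.54% lower), so 1 of 48 members (2.08%) is no more than the background. DESeq2 called 8.79% of all genes there, and limma voom's 10 members are 20.8% of 48, below its 22%. The call held in each of the 28 fits that left out 1 library, with estimates from −2.27 to −1.82; without sham-Oxf replicate 1 the value was −1.82 (edgeR adjusted p = 0.00594). Counts of Adamts4 were small, from 0 to 131 per library.

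Within CKD the log2 fold change of Adamts4 with Oxf was −1.90 ± 0.49, and within sham it was −2.01 ± 0.54. Neither passed on its own in edgeR, with adjusted p of 0.178 and 0.168. Without CKD-Oxf replicate 4 the CKD value passed (−1.86, edgeR adjusted p = 0.0463). When 1 library was left out, 0 to 927 of all genes were called in that comparison. Without sham-Oxf replicate 1 the sham value was −1.74 (edgeR adjusted p = 0.373). Within a single surgery other methods called it as follows: limma voom in CKD (−2.10, adjusted p = 0.00721) and DESeq2 in sham (−2.04, adjusted p = 0.0114). The CKD-Oxf and CKD-vehicle ranges did not overlap for 1 of the 48 members, Adamts4, against 0.478% of all genes tested. In the other 3 comparisons of group with group 0 of 48 members were separate, against 0.128% of all genes for CKD-vehicle with sham-vehicle, 0.227% for sham-Oxf with sham-vehicle and 0.272% for CKD-Oxf with sham-Oxf. Surgery, averaged over gavage, gave 0.46 ± 0.35 for Adamts4 (edgeR adjusted p = 0.659).

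Expression of the circadian clock moved with Adamts4. A clock score was formed as the mean log2 level of 10 clock genes that peak towards evening minus that of 5 that peak towards morning, set to 0 for the sham-vehicle mean. The score was 0 ± 1.02 for sham-vehicle, −1.44 ± 0.986 for CKD-vehicle, 1.59 ± 0.44 for sham-Oxf and 0.998 ± 0.521 for CKD-Oxf (SD), so both Oxf groups had higher scores than both vehicle groups. With Oxf averaged over surgery, edgeR called 7 of the 10 evening genes higher and 4 of the 5 morning genes lower. Over all genes 2.81% were called there, 1.54% lower. The score is made of these same clock genes, so the counts are not a separate finding. With the score as a covariate, the Adamts4 estimate for Oxf averaged over surgery was −0.55 (edgeR adjusted p = 0.872). The covariate fit gave −0.41 within CKD and −0.69 within sham. Because the score differed with gavage, this fit cannot tell a difference by gavage from one by clock score, for Adamts4 or other genes.

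Adamts4 also followed the clock score and the mouse number inside the sham-vehicle group, where all mice had the same treatment. In these mice the score itself largely rose with the mouse number, from −1.43 in mouse 901 to 1.26 in mouse 910. The relations with score and number are therefore not separate findings and cannot be told apart. They were computed only for Adamts4, the called member, so whether other genes follow score or number as closely was not tested. Against the clock score, Pearson's r was −0.901 (permutation p = 0.00036, adjusted 0.00144) and Spearman's rho −0.939 (permutation p = 0.0003, adjusted 0.0018) over 10 mice. Against the mouse number, r was −0.922 (permutation p = 0.00048, adjusted 0.00144) and rho −0.891 (permutation p = 0.00108, adjusted 0.00324). Leaving out the 2 mice farthest from the median left r at −0.927 and −0.96.

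In the smaller groups the relations rested on few mice. In CKD-vehicle (6 mice), r was −0.724 with the clock score (exact permutation p = 0.122, adjusted 0.146) with rho of −0.829 (exact permutation p = 0.0583, adjusted 0.117), and r was −0.214 without the 2 farthest mice. In CKD-Oxf (7 mice), r with the score was −0.878 (exact permutation p = 0.069, adjusted 0.104) and rho −0.607 (exact permutation p = 0.167, adjusted 0.21), with r at −0.554 without the 2 farthest mice. With the mouse number, r was −0.665 in CKD-vehicle (exact permutation p = 0.161, adjusted 0.161; rho −0.657, exact permutation p = 0.175, adjusted 0.21) and −0.634 in CKD-Oxf (exact permutation p = 0.0357, adjusted 0.0714; rho −0.536, exact permutation p = 0.236, adjusted 0.236). Without the 2 farthest mice these became 0.0822 and −0.236, so they rest on those mice. In all, 6 relations were computed, 2 in each of the 3 groups with at least 6 mice, and none was computed for the 5 sham-Oxf mice.

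**Figure D1:**
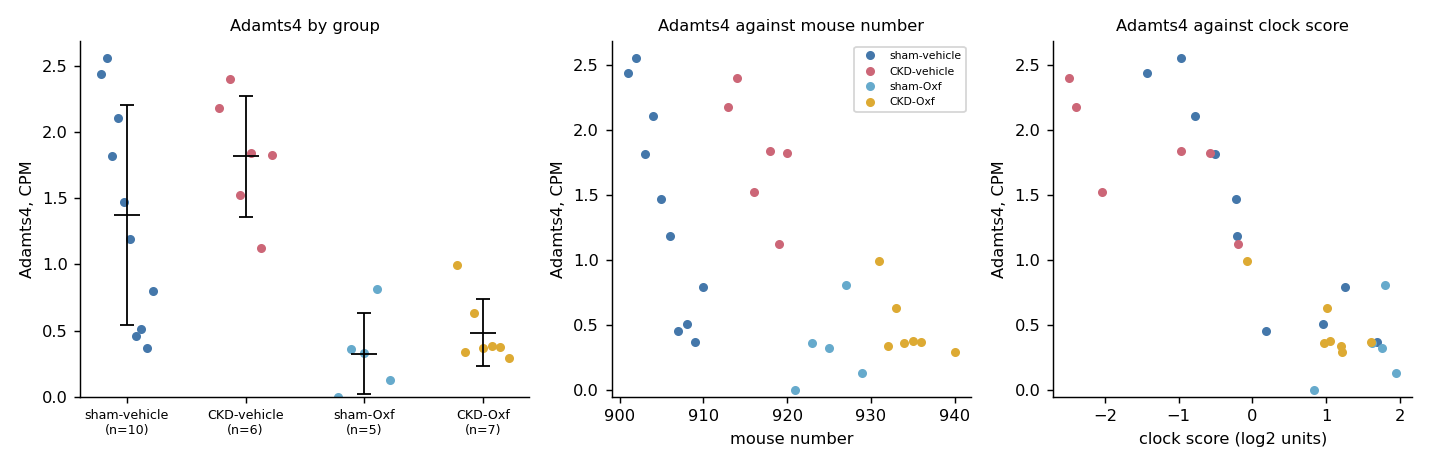
Adamts4 in CPM for each of the 28 hearts, by group (left, points with mean ± SD), against mouse number (middle) and against the clock score in log2 units (right). The 12 Oxf hearts reach at most 0.997 CPM, while sham-vehicle hearts run from 0.368 to 2.56 CPM and fall as the clock score rises.

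Marker lists of several cell types and tissues also differed between groups, and not all of these differences followed the gavage. The 6 fibroblast markers summed to a median of 581 CPM for sham-vehicle, 573 for CKD-vehicle, 364 for sham-Oxf and 391 for CKD-Oxf, with ranges of 290.4 to 994 and 422 to 887 under vehicle and 289.6 to 657 and 262 to 643 with Oxf, and none at 0 in any library. Of these, 1 of 6, Lum, was called lower with Oxf averaged over surgery. Of the 5 cardiomyocyte markers 1, Tnni3, was called lower (−0.72, edgeR adjusted p = 0.0447), with a list median of −0.46 in log2 units. Of the 5 liver markers 2, Alb and Serpina1c, were called higher (both edgeR adjusted p = 0.04), with a list median of 1.85. The 5 liver markers summed to a median of 5.60 CPM for sham-vehicle, 0.917 for CKD-vehicle, 10.2 for sham-Oxf and 4.86 for CKD-Oxf. Their sum reached 23.3, 2.02, 53.3 and 91.7 CPM in the same order. In edgeR all 5 had an unadjusted p under 0.05 for CKD-vehicle against sham-vehicle (against 4.46% of all genes). The same held for CKD-Oxf against CKD-vehicle (against 13.1%). For sham-Oxf against sham-vehicle 0 of 5 did (against 12.6%). No smooth muscle or skeletal muscle marker was called in edgeR for Oxf averaged over surgery, with list medians of −0.39 and −2.45. There 3 of 5 and 3 of 4 tested had an unadjusted p under 0.05. So did 4 of 6 fibroblast, 3 of 5 cardiomyocyte, 4 of 5 liver and 2 of 5 endothelial markers. Valve, atrial and blood lists had 1 each, and macrophage, neutrophil, mesothelium and adipose lists 0. Over all genes 2.81% were called and 23% had an unadjusted p under 0.05. Skeletal muscle markers summed to a median of 39.0 CPM for sham-vehicle, 78.3 for CKD-vehicle, 35.1 for sham-Oxf and 45.6 for CKD-Oxf. The part of these markers in the Adamts4 result was not tested. The share of counts taken by 7SL RNA, which ran from 1.83% to 20.98% of a library, served as a second covariate, and the Adamts4 estimate was then −2.0 (edgeR adjusted p = 0.0218). Of the 54 members, 15, Adamts4 among them, overlap another gene in exons, and since the strand setting of the counting is not given in the sources used here, reads of overlapping genes cannot be told apart. Because each group holds its own block of mouse numbers, an effect of mouse order cannot be told apart from one of group.

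The families differed in level, and the groups overlapped in each of them. Summed over members, the Mmp family reached 39.6 ± 6.97 CPM per kb for sham-vehicle, 40.5 ± 5.38 for CKD-vehicle, 34.9 ± 5.46 for sham-Oxf and 37.7 ± 3.88 for CKD-Oxf (mean ± SD). The Timp family reached 54.2 ± 9.68, 45.9 ± 6.72, 50.8 ± 14.5 and 47.9 ± 14.4 CPM per kb in the same order of groups. Thus 4 inhibitor genes together were more abundant as RNA than 21 Mmp genes in each group mean. The Adamts family sum was 50.4 ± 5.63, 49.7 ± 9.42, 53.7 ± 5.54 and 58.0 ± 10.9 CPM per kb. The Adamtsl sum was 30.1 ± 5.47, 32.3 ± 9.23, 37.2 ± 4.08 and 37.0 ± 8.03 CPM per kb, and the Lox sum 19.1 ± 4.80, 17.9 ± 2.18, 17.1 ± 4.28 and 17.0 ± 1.19 CPM per kb. Without sham-Oxf replicate 1 the sham-Oxf sums were 34.7 ± 6.27 for Mmp, 54.7 ± 13.4 for Timp, 55.7 ± 3.80 for Adamts, 38.8 ± 2.30 for Adamtsl and 16.8 ± 4.88 CPM per kb for Lox. The ratio of the Mmp sum to the Timp sum was 0.741 ± 0.134, 0.888 ± 0.11, 0.717 ± 0.174 and 0.860 ± 0.320, and 0.641 ± 0.0471 in sham-Oxf without replicate 1.

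**Figure D2:**
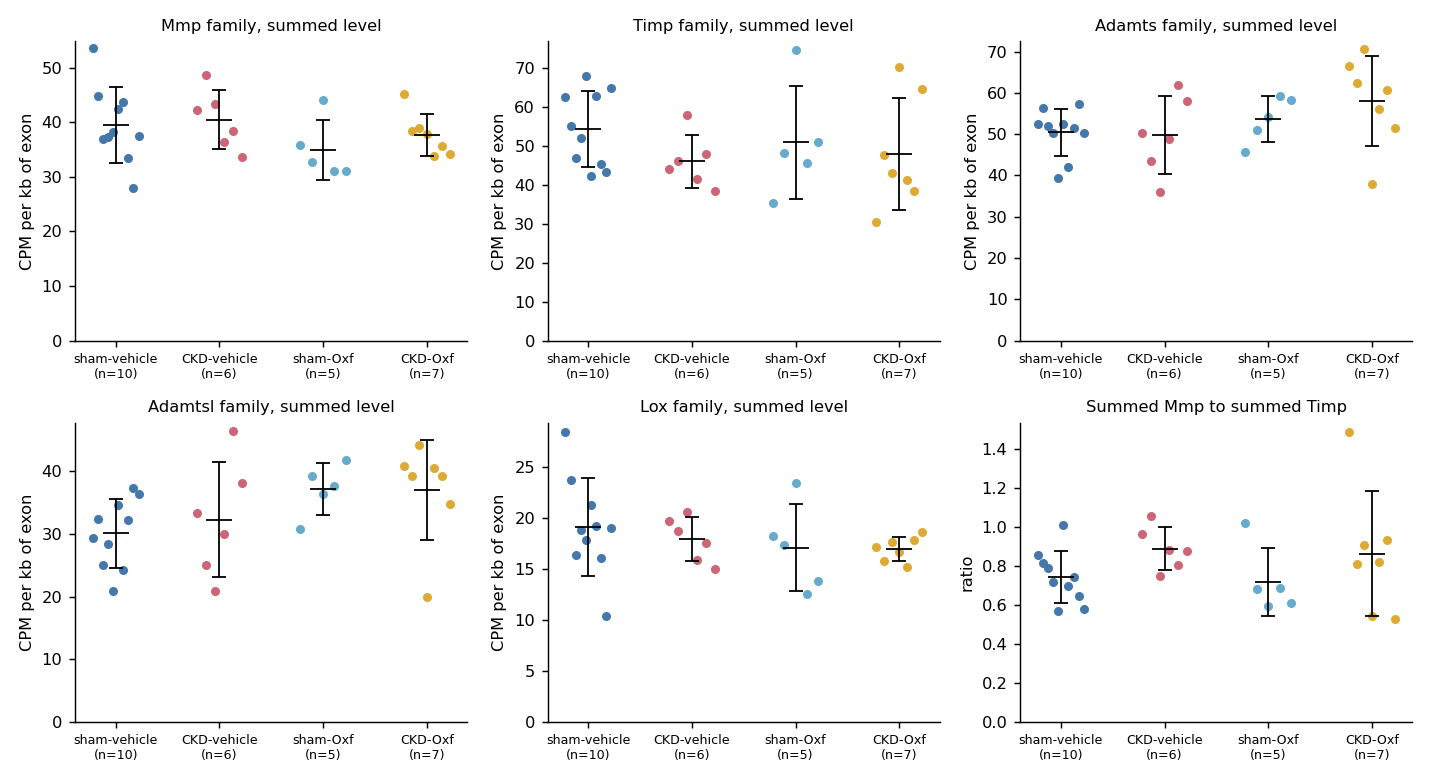
Summed level of each family in CPM per kb of exon, and the ratio of the Mmp sum to the Timp sum, for each heart by group (points, with mean ± SD). Group ranges overlap in every panel, and the highest ratio in CKD-Oxf, 1.49, is that of replicate 1.

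In each family 1 to 3 genes made most of the RNA. In sham-vehicle, Mmp15, a membrane-bound Mmp, held 30.4% of the Mmp sum (12.0 CPM per kb), Mmp2, the gelatinase of fibroblasts, 29.5% (11.7 CPM per kb), and Mmp23 8.04% (3.18 CPM per kb). Timp3, the inhibitor that binds to the matrix, held 51.9% of its family sum, followed by Timp2 at 34.6% and Timp4 at 11.8%, while Timp1 held 1.72%. Adamts1 held 22.6%, Adamts10 20.5% and Adamts7 13.9% of the Adamts sum, whereas Adamts4 held 0.566% (0.285 CPM per kb). Adamtsl5 and Adamtsl4 held 40.3% and 40.1% of the Adamtsl sum. Loxl1, which crosslinks elastic fibres, held 54.6% of the Lox sum and Lox itself 7.60%. Adamts4, the called member, is a small part of its family's RNA.

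**Figure D3:**
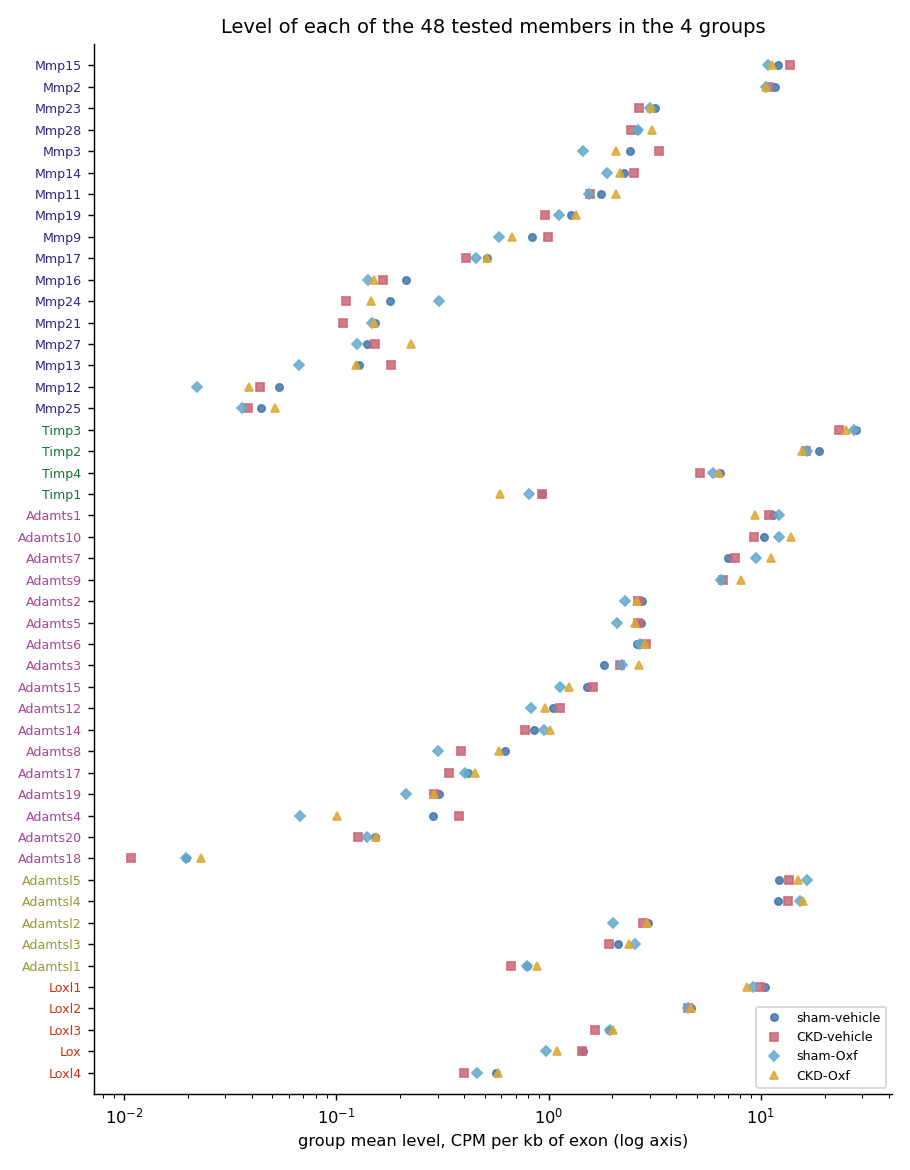
Mean level of each of the 48 tested members in the 4 groups, in CPM per kb of exon on a log axis, ordered by family and by level in sham-vehicle. For most members the 4 symbols lie close together, and Adamts4 is set apart by low values in both Oxf groups.

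Among the metalloproteinases, none of the 17 tested passed in edgeR or DESeq2 in any of the 7 comparisons. With limma voom, Mmp28 was called higher for CKD-Oxf against CKD-vehicle (0.37, adjusted p = 0.0434) and for Oxf averaged over surgery (0.29, adjusted p = 0.0218). For the latter limma voom called Mmp9, a gelatinase of inflammatory cells, lower (−0.93, adjusted p = 0.0214), as it did Mmp12. Mmp28 and Mmp9 are named after their values were seen. In edgeR the Mmp9 value was −0.53 ± 0.37 (edgeR adjusted p = 0.409). Mmp9 is at 0 in sham-Oxf replicate 1. Without that library it averaged 2.59 ± 2.23 CPM in sham-Oxf, against 2.95 ± 0.965 in sham-vehicle (SD). Mmp15 averaged 65.0 ± 14.2 CPM for sham-vehicle, 74.4 ± 11.5 for CKD-vehicle, 58.5 ± 16.3 for sham-Oxf and 60.7 ± 19.6 for CKD-Oxf (SD). Mmp2 averaged 39.4 ± 11, 36.6 ± 6.46, 35.5 ± 7.36 and 35.5 ± 3.90 CPM in the same order. For Mmp2 the log2 fold change of CKD-vehicle against sham-vehicle was −0.10 ± 0.15 (edgeR adjusted p = 0.955), a difference smaller than the spread between mice. Mmp23, a small membrane-tethered member, gave −0.25 ± 0.16 there (edgeR adjusted p = 0.955).

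Mmp19 had the smallest p of the members above 1 CPM in the comparison of CKD-vehicle with sham-vehicle and in the interaction of surgery with gavage. In CKD-vehicle its values were 4.61, 2.44, 4.03, 2.77, 3.77 and 2.66 CPM, and in sham-vehicle they ran from 3.18 to 5.69 CPM (median 4.38). In sham-Oxf they were 3.04, 4.64, 5.16, 3.22 and 3.67 CPM, and in CKD-Oxf 2.99, 5.89, 2.97, 6.36, 3.05, 5.70 and 6.17 CPM. The CKD-Oxf hearts split into 3 near 3 CPM and 4 near 6 CPM, and all groups overlapped. The log2 fold change was −0.42 ± 0.21 for CKD-vehicle against sham-vehicle (edgeR adjusted p = 0.955) and 0.68 ± 0.31 for the interaction (edgeR adjusted p = 1), so neither passed.

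The inducible collagenase and stromelysin genes of the mouse lie side by side: 8 Mmp members fall within chr9:7272514-7699585 of mm10. The stretches before the start sites of Mmp13 (a collagenase), Mmp12 (macrophage elastase) and Mmp3 (stromelysin) are shown because these are the 3 genes of the cluster that had an unadjusted p under 0.05 for Oxf averaged over surgery. Each is 250 bases up to the RefSeq start site on the plus strand of GRCm38.p6, at chr9:7272264-7272513, chr9:7347124-7347373 and chr9:7445572-7445821, with matches to the AP-1 motif TGANTCA in capitals.

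Mmp13: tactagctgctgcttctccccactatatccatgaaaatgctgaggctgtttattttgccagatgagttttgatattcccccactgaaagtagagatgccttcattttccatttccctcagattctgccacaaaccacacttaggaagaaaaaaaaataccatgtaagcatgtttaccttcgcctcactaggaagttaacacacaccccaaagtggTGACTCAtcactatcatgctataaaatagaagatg
Mmp12: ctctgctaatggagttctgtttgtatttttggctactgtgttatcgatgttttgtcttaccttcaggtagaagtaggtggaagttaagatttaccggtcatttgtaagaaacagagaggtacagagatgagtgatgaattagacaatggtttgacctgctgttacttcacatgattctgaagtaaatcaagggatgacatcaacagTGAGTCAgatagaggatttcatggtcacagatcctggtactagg
Mmp3: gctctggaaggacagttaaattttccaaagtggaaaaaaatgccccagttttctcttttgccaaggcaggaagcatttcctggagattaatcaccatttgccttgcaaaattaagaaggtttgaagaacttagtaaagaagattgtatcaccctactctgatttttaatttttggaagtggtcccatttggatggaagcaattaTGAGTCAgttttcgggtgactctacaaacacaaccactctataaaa

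The motif begins 35 bases before the start site in Mmp13, 44 in Mmp12 and 46 in Mmp3, so the 3 matches lie close to the same distance. On both strands and over windows of 300 bases (250 before to 50 after the start), TGANTCA occurred in 7.81% of 32851 RefSeq windows and in 6 of the 38 windows found for 35 of the 54 members. All 6 belong to this cluster, to Mmp3, Mmp7, Mmp10, Mmp12, Mmp13 and Mmp20, out of 8 cluster genes with a window. Of the motifs linked to the clock, the E-box CACGTG was found in 2 windows, of Adamts17 and Mmp7, against 7.15% of all windows, and the D-box TTATGNAA in 0, against 3.38%. The motifs searched do not overlap each other in letters. A match describes the sequence and not binding.

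Mmp13, Mmp12 and Mmp3 are named after their values were seen, and none passed the adjusted test in edgeR or DESeq2, while limma voom called Mmp12 for Oxf averaged over surgery (−0.57, adjusted p = 0.0494). Mmp3 ranged in sham-vehicle from 0.890 to 10.6 CPM (median 3.70). It measured 7.09, 7.99, 9.49, 3.71, 4.56 and 2.97 CPM in CKD-vehicle, 2.04, 2.0, 3.67, 2.78 and 2.55 in sham-Oxf, and 3.71, 4.39, 2.39, 6.36, 2.29, 1.85 and 5.31 in CKD-Oxf. The Oxf hearts lay within the sham-vehicle range. With Oxf averaged over surgery the log2 fold change of Mmp3 was −0.70 ± 0.30 (edgeR adjusted p = 0.162), that of Mmp12 −0.68 ± 0.29 (adjusted p = 0.16) and that of Mmp13 −0.72 ± 0.32 (adjusted p = 0.179). Mmp12, which shares exon bases with Mmp1b, and Mmp13 averaged under 0.5 CPM in each group, and both are at 0 in sham-Oxf replicate 1; without that library their values were −0.54 and −0.59 (edgeR adjusted p = 0.153 and 0.182). With the clock score as covariate the Mmp3 value turned to 0.31 (edgeR adjusted p = 0.921).

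**Figure D4:**
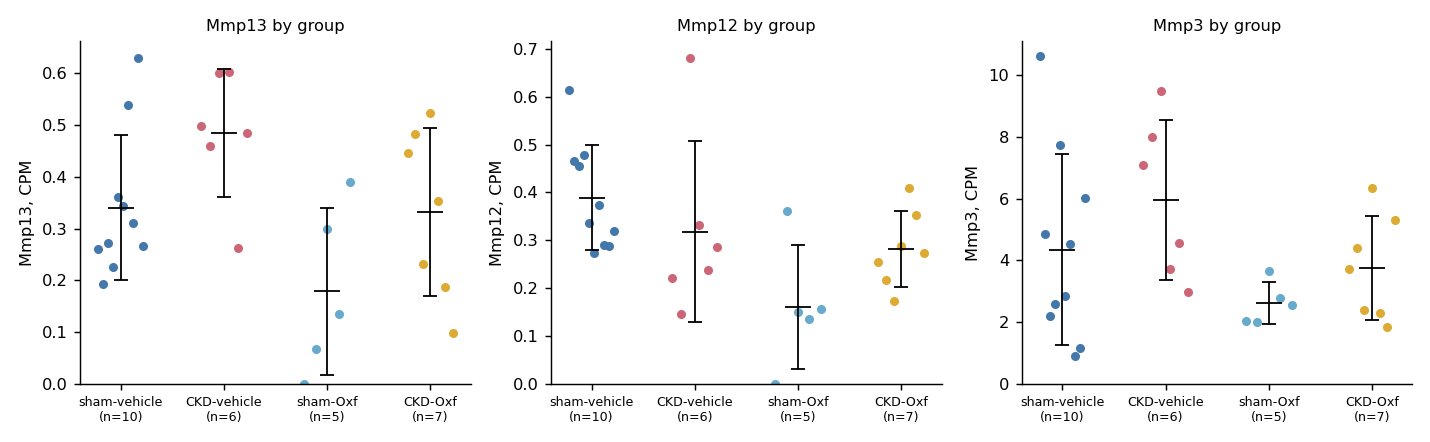
Mmp13, Mmp12 and Mmp3 in CPM for each heart by group (points, with mean ± SD). Mmp13 and Mmp12 stay below 0.7 CPM in every library, and the sham-Oxf values of Mmp3, from 2.0 to 3.67 CPM, fall inside the sham-vehicle range.

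Mmp24, a membrane-bound member also named after its values were seen, was not called in any comparison by edgeR, DESeq2 or limma voom. For surgery averaged over gavage it had the smallest unadjusted p of all members, 0.0039 in edgeR's fit, with a log2 fold change of −0.86 ± 0.27 (edgeR adjusted p = 0.292). Between the vehicle groups the value was −0.68 ± 0.37 (edgeR adjusted p = 0.955), from means of 0.522 ± 0.257 CPM for CKD-vehicle and 0.835 ± 0.350 CPM for sham-vehicle (SD). Without sham-Oxf replicate 1 the surgery value was −0.61 (edgeR adjusted p = 0.306), and that of CKD-Oxf against sham-Oxf went from −1.04 to −0.55 (edgeR adjusted p = 0.431 and 0.807). Its sham-Oxf values were 3.13, 1.13, 0.686, 0.973 and 1.22 CPM, the first being replicate 1, while sham-vehicle hearts ran from 0.206 to 1.23 CPM. With Oxf averaged over surgery the log2 fold change was 0.58 ± 0.27 (edgeR adjusted p = 0.198), and 0.33 without sham-Oxf replicate 1 (edgeR adjusted p = 0.39).

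Among the inhibitors none of the 4 Timp genes passed in any comparison in edgeR, DESeq2 or limma voom. Timp3 averaged 229 ± 44.0 CPM for sham-vehicle, 191 ± 26.7 for CKD-vehicle, 224 ± 58.3 for sham-Oxf and 206 ± 71.0 for CKD-Oxf (SD). Timp2, which also takes part in the activation of Mmp2, averaged 73.0 ± 24.5, 63.9 ± 15.5, 64.4 ± 33.0 and 60.8 ± 22.1 CPM, and Timp4, an inhibitor enriched in heart, 37.8 ± 14.5, 30.4 ± 10.5, 35.0 ± 6.85 and 37.6 ± 13.9 CPM. For all 4 the fitted value of CKD-vehicle against sham-vehicle was below 0, from −0.31 ± 0.27 for Timp4 to −0.00 ± 0.45 for Timp1, and Timp3 at −0.26 ± 0.17 did not pass either (edgeR adjusted p = 0.955). Timp1, an inhibitor that is induced in many forms of injury, was the least abundant. Its values were 0.886, 0.814, 1.61, 0.573, 0.645 and 0.462 CPM in CKD-vehicle and 0.178 to 1.58 CPM in sham-vehicle (median 0.783). It measured 1.19, 0.856, 0.925, 0.108 and 0.521 CPM in sham-Oxf and 0.361, 0.458, 0.346, 0.863, 0.136, 0.290 and 1.21 CPM in CKD-Oxf. The 4 groups overlapped across this range, and the CKD-vehicle mean of 0.831 CPM was close to the sham-vehicle mean of 0.827 CPM.

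Apart from Adamts4, none of the 17 tested Adamts genes passed in edgeR with all libraries or in DESeq2. For Oxf averaged over surgery limma voom also called Adamts3 (0.42, adjusted p = 0.00395), Adamts7 (0.58, adjusted p = 0.0109) and Adamts10 (0.48, adjusted p = 0.0125) higher, and it called Adamts10 for CKD-Oxf against CKD-vehicle (0.67, adjusted p = 0.0205). Adamts10, which binds fibrillin microfibrils, had the second smallest p with Oxf in CKD hearts among members above 1 CPM. In CKD-vehicle it measured 92.4, 46.7, 37.6, 73.2, 115.8 and 94.8 CPM, and in CKD-Oxf 134, 140.4, 140.6, 47.4, 127, 115 and 93.6 CPM. Of the 7 CKD-Oxf hearts, 4 lay above the highest CKD-vehicle heart and replicate 4 lay among the lowest. The log2 fold change was 0.57 ± 0.24 (edgeR adjusted p = 0.327). With Oxf averaged over surgery it was 0.40 ± 0.17 (edgeR adjusted p = 0.148), and 0.46 without CKD-Oxf replicate 4, which then passed (edgeR adjusted p = 0.0434). For Oxf averaged over surgery, 109 to 3362 of all genes were called when 1 library was left out.

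Adamts7, which cuts cartilage oligomeric matrix protein, also had higher means in the Oxf groups but did not pass in edgeR, with 0.50 ± 0.19 for Oxf averaged over surgery (edgeR adjusted p = 0.118) and 0.55 without CKD-Oxf replicate 4 (edgeR adjusted p = 0.0384). It shares exon bases with Tbc1d2b. Its group means were 44.2 ± 17.0 CPM for sham-vehicle, 47.2 ± 16.7 for CKD-vehicle, 59.4 ± 11.8 for sham-Oxf and 70.4 ± 26.2 for CKD-Oxf (SD). With the clock score as covariate the values for Oxf averaged over surgery were 0.22 for Adamts7 and 0.12 for Adamts10 (edgeR adjusted p = 0.913 and 0.947). With the 7SL share as covariate they were 0.33 and 0.23.

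Adamts5, the other main aggrecanase, was more abundant than Adamts4 per kb in each group mean. It measured 15.7, 19.7, 26.0, 30.7 and 21.3 CPM in sham-Oxf against 25.1 to 36.0 CPM (median 27.8) in sham-vehicle, a log2 fold change of −0.37 ± 0.13 (edgeR adjusted p = 0.264) that became −0.26 without sham-Oxf replicate 1 (edgeR adjusted p = 0.55). For CKD-Oxf against sham-Oxf it gave 0.28 ± 0.14 (edgeR adjusted p = 0.641). The groups overlapped in both comparisons. Adamts8, an antiangiogenic member, varied widely within groups: sham-vehicle replicate 1 had 10.0 CPM against 0.762 to 3.65 in the other 9, and CKD-Oxf replicate 3 had 7.93 CPM against 0.785 to 3.84 in the other 6. Its interaction estimate was 1.64 ± 0.83 (edgeR adjusted p = 1), and 1.34 without sham-Oxf replicate 1, where it is at 0. For surgery averaged over gavage, Adamts3, a procollagen-processing relative, had 0.25 ± 0.13 and Adamts1 −0.22 ± 0.13 (edgeR adjusted p = 0.504 and 0.555).

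In the Adamtsl family the most abundant members, Adamtsl5 and Adamtsl4, had higher means with Oxf, but none of the 5 genes passed in edgeR or DESeq2. With limma voom, Adamtsl4 (0.44, adjusted p = 0.0118) and Adamtsl3 (0.34, adjusted p = 0.0101) were called higher for Oxf averaged over surgery. Adamtsl5 averaged 57.3 ± 12.9 CPM for sham-vehicle, 64.0 ± 19.7 for CKD-vehicle, 77.9 ± 10.4 for sham-Oxf and 70.9 ± 24.2 for CKD-Oxf (SD), with 0.30 ± 0.16 for Oxf averaged over surgery (edgeR adjusted p = 0.26). Adamtsl4, which binds fibrillin and is needed for the fibres that hold the eye lens, averaged 50.7 ± 13.3, 56.1 ± 20.1, 64.3 ± 14.9 and 66.2 ± 15.2 CPM, with 0.29 ± 0.15 (edgeR adjusted p = 0.24). Adamtsl3, named after its values were seen, had 0.29 ± 0.10 for the same comparison (edgeR adjusted p = 0.103). Adamtsl2, a fibrillin binder linked to TGF-beta signalling, averaged 23.6 ± 7.81, 22.2 ± 6.59, 16.1 ± 5.09 and 23.4 ± 8.70 CPM in the 4 groups. It had 0.54 ± 0.26 for CKD-Oxf against sham-Oxf (edgeR adjusted p = 0.603), the smallest p there among members above 1 CPM.

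Among the crosslinking enzymes none of the 5 genes passed in any comparison in edgeR or DESeq2. With limma voom, Loxl4 was called higher for CKD-Oxf against CKD-vehicle (0.68, adjusted p = 0.0256) and Lox lower for Oxf averaged over surgery (−0.62, adjusted p = 0.042). Loxl1 averaged 34.4 ± 10.7 CPM for sham-vehicle, 32.6 ± 6.09 for CKD-vehicle, 30.2 ± 12.2 for sham-Oxf and 28.4 ± 4.87 for CKD-Oxf (SD). Loxl2, which crosslinks basement membrane collagen among others, had similar group means of 25.5 ± 4.34, 24.4 ± 1.70, 24.5 ± 2.28 and 25.3 ± 4.01 CPM, with −0.06 ± 0.11 for CKD-vehicle against sham-vehicle (edgeR adjusted p = 0.96). Loxl3 averaged 8.91 ± 1.95, 7.59 ± 1.17, 8.94 ± 2.37 and 9.21 ± 1.71 CPM, and Loxl4 2.39 ± 0.555, 1.69 ± 0.456, 1.94 ± 1.10 and 2.44 ± 0.551 CPM. Without replicate 1, in which it is at 0, Loxl4 averaged 2.42 ± 0.245 CPM in sham-Oxf.

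Lox, the founding crosslinking enzyme, measured 7.57, 8.28, 11.5, 4.52, 5.32 and 4.18 CPM in CKD-vehicle and 2.65 to 14 CPM (median 6.29) in sham-vehicle. It measured 8.58, 3.62, 5.55, 2.84 and 2.76 CPM in sham-Oxf and 4.07, 4.29, 4.55, 4.71, 3.11, 5.12 and 10.7 CPM in CKD-Oxf. Of the 12 Oxf hearts, 10 lay below the sham-vehicle median, with 1 high heart in each Oxf group. The log2 fold change with Oxf averaged over surgery was −0.49 ± 0.23 (edgeR adjusted p = 0.203), and with the clock score as covariate it turned to 0.47 (edgeR adjusted p = 0.856). Surgery gave −0.01 ± 0.30 between the vehicle groups (edgeR adjusted p = 0.998).

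Counted over all 48 tested members, no member passed for CKD surgery under vehicle. There edgeR called 0 of 48, against 0.00824% of all 24273 genes, and 0 had an unadjusted p under 0.05, against 4.46%. DESeq2 and limma voom also called 0. At the unadjusted level DESeq2 had 1 member (2.08%) and limma voom 11 (22.9%). Their shares of all genes at that level are not given here, so these counts have no background. For CKD-Oxf against CKD-vehicle edgeR called 0 members, against 0.033% of all genes, with 5 at an unadjusted p under 0.05 (10.4%, against 13.1% of all genes), while DESeq2 called 0 and limma voom 4 (8.33%, against 15% of all genes). For sham-Oxf against sham-vehicle it called 0 members and 0% of all genes, with 5 members at the unadjusted level (against 12.6% of all genes), while DESeq2 called 1, Adamts4 (against 0.548% of all genes), and limma voom 0. For CKD-Oxf against sham-Oxf it called 0 members and 0% of all genes, with 2 members at the unadjusted level (against 8.23%), and DESeq2 and limma voom called 0. The interaction had 0 members called and 0% of all genes, with 1 at the unadjusted level (against 3.55%), and surgery averaged over gavage had 0 and 0%, with 2 (against 10.6%); DESeq2 and limma voom called 0 members in both. For Oxf averaged over surgery 11 members (22.9%) had an unadjusted p under 0.05, 5 higher and 6 lower, against 23% of all genes (11.5% higher and 11.5% lower). In each comparison the members' share at the unadjusted level in edgeR was near that of all genes or below it.

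The median log2 fold change of the 48 was −0.10 for CKD-vehicle against sham-vehicle (−0.03 over all genes), 0.17 for CKD-Oxf against CKD-vehicle (0.03) and 0.05 for Oxf averaged over surgery (0.00). For sham-Oxf against sham-vehicle it was −0.15, with 35 of 48 below 0, but −0.02 with 26 below 0 once sham-Oxf replicate 1 was left out (−0.04 and 0.03 over all genes). For CKD-Oxf against sham-Oxf it was 0.17, with 39 of 48 above 0, and 0.09 with 30 above 0 without that library (0.05 and −0.00 over all genes). The interaction had the largest median of the 7 comparisons, 0.27 with 39 of 48 above 0, against 0.07 over all genes with 58.7% above 0, and without that library it was 0.14 with 36 of 48 above 0, against 0.02 with 53.1%. For surgery averaged over gavage the median was 0.03 (−0.00 over all genes). The apparent downward lean of the Mmp family in sham-Oxf hearts followed the same library: 15 of 17 were below 0 with it and 10 of 17 without it. Comparisons that share the sham-vehicle or CKD-vehicle hearts are not independent of each other.

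**Figure D5:**
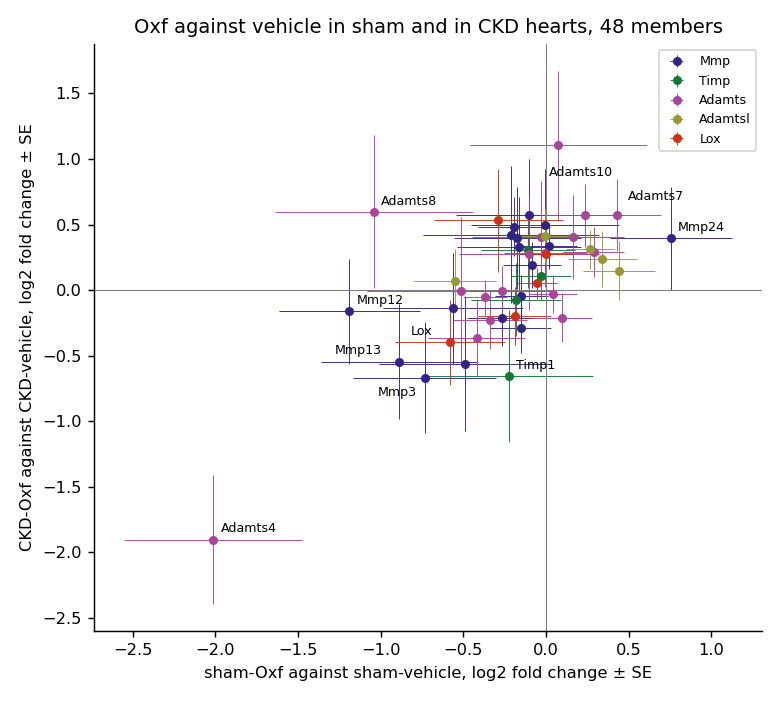
Log2 fold change of each tested member with Oxf in sham hearts (x axis) and in CKD hearts (y axis), with SE bars, coloured by family. Adamts4 lies apart at −2.01 and −1.90, while the other members lie nearer to 0. The SE bars of many of these members do not cross 0.

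Other genes of matrix turnover were counted from lists of plasminogen system, procollagen processing, collagen modification, further matrix proteases, transglutaminases and protease substrates, 60 genes of which 57 were tested. With Oxf averaged over surgery 0 rose and 2 fell in edgeR's test, which is 3.51% and near the 2.81% of all genes. An unadjusted p under 0.05 was found for 20 (35.1%), against 23% of all genes. DESeq2 called 9 of the 57 (15.8%) and limma voom 15 (26.3%), against 8.79% and 22% of all genes. None passed in the other 6 comparisons in edgeR, while limma voom called 8 for CKD-Oxf against CKD-vehicle (14%, against 15% of all genes). DESeq2 called 1 for sham-Oxf against sham-vehicle (1.75%, against 0.548% of all genes). It also called 1 for CKD-Oxf against sham-Oxf (1.75%), where its share of all genes is not given here, so that count has no background. Plat, tissue plasminogen activator, averaged 17.5 ± 4.71 CPM for sham-vehicle, 17.3 ± 5.61 for CKD-vehicle, 10.9 ± 1.63 for sham-Oxf and 12.5 ± 3.88 for CKD-Oxf (SD), and fell by 0.57 ± 0.15 in log2 units (edgeR adjusted p = 0.0386). Vcan, the proteoglycan versican that Adamts4 can cut, averaged 36.3 ± 12.3, 34.5 ± 6.76, 24.4 ± 7.64 and 25.7 ± 3.59 CPM, and fell by 0.50 ± 0.14 (edgeR adjusted p = 0.0489). For both genes the Oxf hearts overlapped the vehicle hearts, and not only at the highest Oxf heart. All CKD-Oxf values of Vcan lay within the sham-vehicle range. For Plat the median of each Oxf group lay above the lowest CKD-vehicle heart. Plat passed in 14 and Vcan in 8 of the 28 fits that left out 1 library, and without sham-Oxf replicate 1 the adjusted p in edgeR was 0.0428 for Plat and 0.064 for Vcan. With the clock score as covariate the Plat value was −0.01 and the Vcan value −0.26 (edgeR adjusted p = 0.995 and 0.873).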

How the data were processed

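Gene counts of 28 ventricular libraries were used as deposited by the authors. Per the submitters' processing notes the tools were FastQC 0.11.7, MultiQC 1.9, STAR 2.6.1d and featureCounts 1.6.3 with build mm10; annotation and strand setting are not given in the sources used here. Members and lists were chosen with earlier results of these data known. Groups come from the labels, and mice are the replicates.

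Genes were filtered with filterByExpr (minimum count 10), scaled by TMM and fitted in 1 model of 4 group means with edgeR 4.0.16 (robust quasi-likelihood, R 4.3.3), testing 24273 genes in 7 contrasts with Benjamini-Hochberg adjustment at 0.05; the fit was tested on simulated data. CPM uses TMM library sizes, and lengths and positions come from GENCODE M21. Interaction means the Oxf effect in CKD minus that in sham. Log2 levels in the clock score use a prior count of 2. Correlations used exact enumeration or 100000 resamples.

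Named genes are all Timp and Lox genes, the 3 most abundant Mmp, Adamts and Adamtsl genes, members called, and otherwise the 2 smallest p per contrast among members with a mean of at least 1 CPM, plus pathway genes called. Genes outside it are said to be so. Alternatives were DESeq2 1.42.0 (test and size factors), limma 3.58.1 voom with quality weights, no filter on low counts, a minimum of 10 counts in each library, fits of the 2 compared groups, clock and 7SL covariates, and leaving out each library. Totals of 19.8 M to 65.4 M counts limit members under 1 CPM to few counts.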

Additional observations from a re-analysis of the deposited data

Results flagged for a closer look

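In the 4 groups, of 5 to 10 mice each, 116 comparisons over 29 measures were searched for a single heart far from the rest, by the gap to its nearest neighbour relative to the whole range of its group. This marked 12, where about 5.8 would be marked by chance if the values followed a normal distribution. Whether they do was not tested, and the family sums and the ratio share genes with other measures. Sham-vehicle replicate 1 was the highest for Adamts8 (10.0 CPM, next 3.65, gap share 0.689), Adamtsl2 (43.4 CPM, next 28.9, gap share 0.511) and Loxl3 (13.9 CPM, next 9.76, gap share 0.596). In CKD-Oxf, replicate 3 was the highest for Adamts8 (7.93 CPM, next 3.84, gap share 0.573) and replicate 7 for Lox (10.7 CPM, next 5.12, gap share 0.733). In CKD-vehicle, replicate 2 was the highest for Mmp15 (96.7 CPM, next 75.0, gap share 0.69) and the lowest for Loxl2 (21.2 CPM, next 24.4, gap share 0.676), and replicate 3 was the highest for Timp1 (1.61 CPM, next 0.886, gap share 0.63).

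Sham-Oxf replicate 1, the library with 16 tested members at 0, was the lowest for Loxl4 (0 CPM, next 2.11, gap share 0.78) and the highest for the ratio of the Mmp to the Timp sum (1.02, next 0.684, gap share 0.784). CKD-Oxf replicate 1 was the highest for that ratio (1.49, next 0.934, gap share 0.576). CKD-Oxf replicate 4, which also had a 7SL share of 20.64%, was the lowest for the Adamtsl sum (19.9 CPM per kb, next 34.8, gap share 0.612).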

How the results depend on the processing

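The number of members called moved in 3 comparisons. For CKD-Oxf against CKD-vehicle it was 0 in edgeR, 4 with limma voom, 1 in a fit of the 2 compared groups, and 0 to 1 when 1 library was left out, the 1 arising without CKD-Oxf replicate 4. For sham-Oxf against sham-vehicle DESeq2 gave 1. For Oxf averaged over surgery it was 1 in edgeR, 10 with limma voom, which called 22% of all genes there, 0 with at least 10 counts in every library, where Adamts4 was no longer tested, 0 with the clock covariate, and 1 to 3 when 1 library was left out, the 3 arising without CKD-Oxf replicate 4. The number of all genes called for Oxf averaged over surgery ran from 109 to 3362 when 1 library was left out. For CKD-Oxf against CKD-vehicle it ran from 0 to 927. The share of all genes is not given here for the fit without CKD-Oxf replicate 4 or for the fit of the 2 compared groups. Those member counts therefore have no background.

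With the clock covariate the sign turned for Timp1 (0.52), Lox (0.47) and Mmp3 (0.31) with Oxf averaged over surgery, and for Adamts4 in CKD-vehicle against sham-vehicle (−0.31), CKD-Oxf against sham-Oxf (−0.023) and surgery averaged over gavage (−0.16); the cause was not tested. The interaction of Adamts4 was −0.18 with limma voom and ran from −0.17 to 0.74 when 1 library was left out, with −0.02 without sham-vehicle replicate 1, −0.03 without replicate 2, −0.17 without sham-Oxf replicate 1, −0.10 without replicate 5 and −0.15 without CKD-Oxf replicate 1. DESeq2 size factors moved the median of all genes by at most 0.024 in size. No paired analysis was possible because replicate numbers follow only the order of deposit.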
